A study of Mus musculus with 6 samples.

Results

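The transcripts described here are those of the phagocyte NADPH oxidase: Cybb, Cyba, Ncf1, Ncf4, Rac2 and Hvcn1, 6 of the 45706 genes in the count table, chosen by what their products do and found by Ensembl identifier. They were measured by bulk RNA-seq in 6 libraries of mouse bone marrow. In 4 libraries the marrow had received medium conditioned by clear cell renal cell carcinoma (ccRCC) cells. The lines were VpR83, VpR99, VpR126 and VpR2020, each in 1 library. In 2 libraries the marrow had, by the sample labels, received control medium (replicates 1 and 2). The headers of the counts add Ctrl to VpR83, T1 to VpR99 and LT2 to VpR126, which the sample labels do not explain. For the controls the headers name bone marrow and a replicate but no medium. The sources used here give no mouse strain, age, culture time or batch, and no library carried a genetic change that the labels name. The lines stood in as the replicates of conditioned medium, so no line could be tested against another. The sample labels name control medium as the comparator, but the design text of the whole study speaks of freshly isolated marrow, so time in culture and medium cannot be told apart. Nothing in the labels says that the 2 controls came from separate animals, and p-values measure only the spread between these libraries.

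The oxidase moves electrons from cytosolic NADPH across the membrane of the phagosome or cell surface onto oxygen, which makes superoxide for the killing of microbes. Its electron-carrying core is a membrane heterodimer of gp91phox (NOX2, gene Cybb) and p22phox (gene Cyba). In resting cells p47phox (Ncf1) and p40phox (Ncf4) stay in the cytosol as part of a complex, and activation brings that complex to the membrane together with a Rac GTPase, which in neutrophils is mainly Rac2. Hvcn1 encodes the voltage-gated proton channel that carries out the protons left behind by the electron flow. Neutrophils, monocytes and macrophages all use this enzyme, and inherited loss of a core subunit causes chronic granulomatous disease.

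Depth and composition of the libraries bear on every value below. Total counts were 28055913, 129120559, 25714176 and 19412158 in the VpR83, VpR99, VpR126 and VpR2020 libraries, and 27448621 and 18629708 in control replicates 1 and 2. Levels are depth-normalised counts (CPM) scaled by the TMM method. Exact 95% Poisson intervals, which cover counting error only, were computed in each library for the 6 oxidase transcripts. Relative to its level, the widest was that of Hvcn1 under VpR2020 medium (61.2 CPM, interval 57.6 to 64.9 CPM). No such interval was computed for the other genes, some of which had few counts. Of 12 macrophage markers 11 were called higher, and their summed level was 6184 to 16451 CPM in conditioned libraries and 471 to 489 CPM in controls. Of 11 late neutrophil markers 9 were called lower (summed 2993 to 14212 CPM in conditioned libraries and 66758 to 72620 CPM in controls), and of 7 neutrophil precursor markers 3 (434 to 2626 CPM in conditioned libraries and 4093 to 4288 CPM in controls). No marker of these 3 lists was at 0 in a whole group. Of 10 monocyte markers 3 were called lower (2398 to 4700 CPM in conditioned libraries and 4949 to 6045 CPM in controls). Chil3, 1 of the 3, had the highest CPM of the 10 in controls. Its level was 3243 ± 455 CPM in controls and 518 ± 267 CPM in conditioned libraries. Nr4a1, another of the 3, had 498 and 53.9 CPM in control replicates 1 and 2. Not called, Ccr2 and F13a1 lay above both controls in every conditioned library, and Ly6c2 and Treml4 below both. Called lower were also 7 of 9 B cell, 8 of 9 T and NK cell, 8 of 8 erythroid, 4 of 7 dendritic cell and 3 of 6 eosinophil markers, the erythroid Slc4a1 and Car1 being at 0 in every conditioned library. Of all tested genes, 22.5% were called higher and 19.7% lower by the same test. Of 5 tested epithelial markers 1 was called higher and 2 lower (9.72 to 24.2 CPM in conditioned libraries and 23 to 24.8 CPM in controls). Krt8 and Krt19 were at 0 in the conditioned libraries, and Krt19 and Cdh16 in the controls. In bulk RNA, fewer cells of a type and less RNA per cell cannot be told apart, and the part of these shifts in the values below was not tested.

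The proximal promoter of Cybb is shown first, because Cybb was the member whose level differed most between the media, and that of Ncf1 beside it as the promoter of a member called lower. Both are RefSeq sequences of build GRCm38.p6 on the minus strand, from 250 bases before to 50 bases after the transcript start, printed 5′ to 3′ (Cybb at chrX:9469275-9469574 and Ncf1 at chr5:134229576-134229875). RefSeq promoters were matched for 3 of the 6 members, Cyba being the third. Capitals mark matches, on either strand, to the letters GAGGAA (the core bound by the myeloid factor PU.1), to GGAA and GAAA set apart by 2 bases of any kind (a composite of an ETS and an IRF site) and to CCAAT (the CCAAT box).
Cybb: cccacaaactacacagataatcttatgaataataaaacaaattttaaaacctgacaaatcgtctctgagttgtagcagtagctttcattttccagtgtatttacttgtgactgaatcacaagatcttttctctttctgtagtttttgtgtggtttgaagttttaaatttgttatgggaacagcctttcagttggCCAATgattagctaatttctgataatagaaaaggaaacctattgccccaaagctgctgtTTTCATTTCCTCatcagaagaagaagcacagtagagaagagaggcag
Ncf1: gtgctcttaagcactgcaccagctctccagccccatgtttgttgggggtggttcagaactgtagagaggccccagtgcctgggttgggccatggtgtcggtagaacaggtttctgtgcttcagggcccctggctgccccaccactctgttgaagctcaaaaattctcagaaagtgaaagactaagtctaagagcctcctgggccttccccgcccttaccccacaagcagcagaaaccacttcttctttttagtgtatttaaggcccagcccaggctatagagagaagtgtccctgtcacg
In the Cybb promoter the CCAAT match spanned bases -56 to -52 from the transcript start. The composite match spanned bases 4 to 13 and overlapped the GAGGAA match at bases 10 to 15, both on the opposite strand, so they form 1 run of capitals. The Ncf1 and Cyba windows held none of the 3 letter patterns. Among 32851 RefSeq promoter windows of the same length, 28.3% held GAGGAA, 2.72% the composite and 37.4% CCAAT. These matches describe the letters only.

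No subunit transcript was called higher under conditioned medium, and 2 of the 6, those of Rac2 and Ncf1, were called lower. All 6 members passed the filter on low counts. As background, the quasi-likelihood test of edgeR with Benjamini-Hochberg adjustment (adjusted p below 0.05) called 42.2% of 15141 tested genes, 22.5% as higher and 19.7% as lower. The median log2 fold change of the 6 members was -0.34, beside -0.01 for all genes tested.

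**Figure D1:**
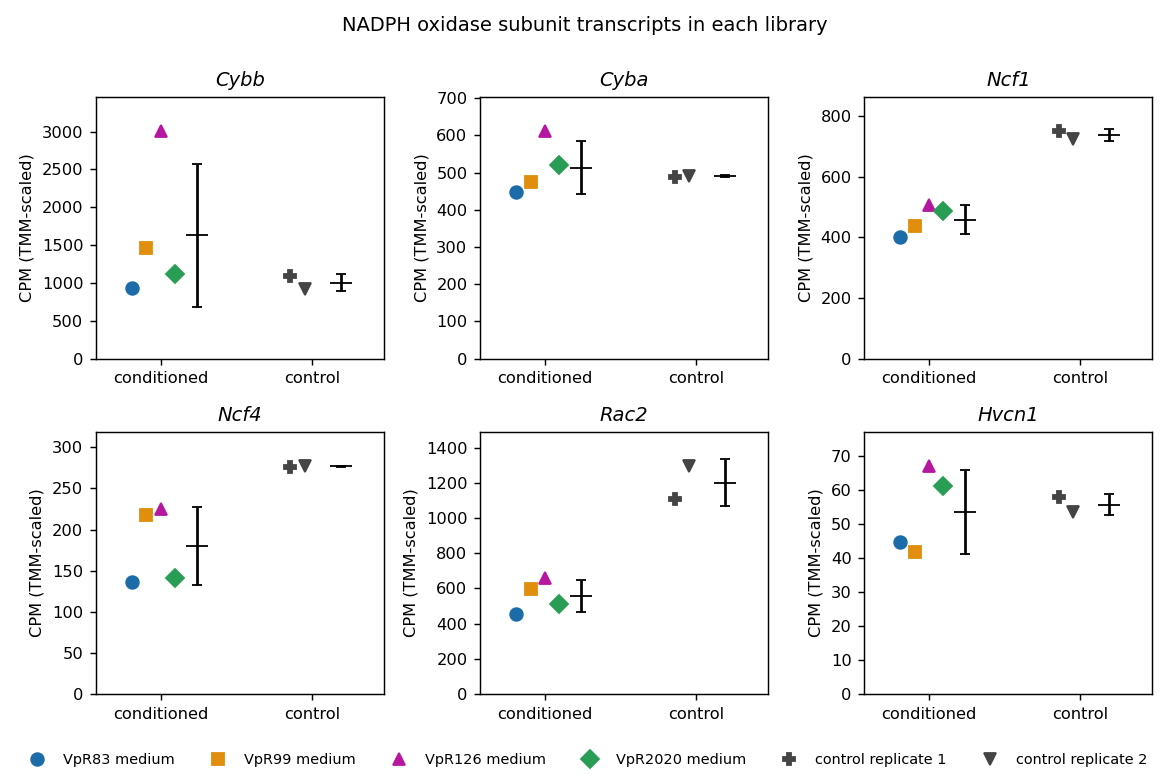
TMM-scaled CPM of the 6 oxidase transcripts in each library, conditioned libraries to the left and controls to the right; symbols mark single libraries, and the bar beside each group is its mean ± SD (n = 4 conditioned and n = 2 control). All conditioned values of Ncf1, Ncf4 and Rac2 lie below both controls, and Cybb reaches 3010 CPM under VpR126 medium alone.

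Rac2 encodes the Rac GTPase of blood cells that joins the active oxidase (chromosome 15, 78559167 to 78572783, GRCm38). Its level was 454, 598, 659 and 513 CPM under VpR83, VpR99, VpR126 and VpR2020 medium, and 1105 and 1294 CPM in control replicates 1 and 2. Every conditioned library lay below both controls. The mean was 556 ± 90.5 CPM in conditioned libraries (SD, n = 4) and 1200 ± 134 CPM in controls (SD, n = 2), and Rac2 fell 2.16-fold (log2 fold change -1.11 ± 0.20 SE, edgeR adjusted p = 0.00666). Without control replicate 2 the log2 fold change was -0.97 and the call was lost (edgeR adjusted p = 0.0688, over all alternatives 2.79e-06 to 0.0688).

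Ncf1 encodes p47phox, the organizer whose phosphorylation starts assembly (chromosome 5, 134220053 to 134229625). It had 403, 438, 508 and 487 CPM under VpR83, VpR99, VpR126 and VpR2020 medium, and 753 and 724 CPM in the 2 controls. The conditioned libraries spanned 1.26-fold, the narrowest range of the 6 members, and none reached a control. Ncf1 fell 1.61-fold (459 ± 47.4 CPM in conditioned libraries and 738 ± 20 CPM in controls, log2 fold change -0.69 ± 0.16 SE, edgeR adjusted p = 0.0156). The call was lost without control replicate 1 or control replicate 2 (edgeR adjusted p = 0.113 and 0.0983, over all alternatives 0.000216 to 0.113), while the log2 fold change was then -0.66 and -0.70.

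Ncf4 encodes p40phox, which binds phosphatidylinositol 3-phosphate on phagosomes (chromosome 15, 78244801 to 78262580). Levels were 137, 218, 225 and 141 CPM under VpR83, VpR99, VpR126 and VpR2020 medium, and 277 CPM in each control. The libraries formed a low pair (VpR83 and VpR2020) and a higher pair (VpR99 and VpR126), all of them under the controls. The difference did not pass the threshold (180 ± 47.9 CPM in conditioned libraries and 277 ± 0.348 CPM in controls, log2 fold change -0.62 ± 0.25 SE, edgeR adjusted p = 0.0885). It did without VpR126, with upper-quartile scaling and with unscaled library totals (edgeR adjusted p = 0.0475, 0.0311 and 0.0281, over all alternatives 0.0281 to 0.276). The groups did not overlap for 3 of the 6 members, all lower, where 33.3% of tested genes had all conditioned libraries below both controls, 32% had them above and 65.3% had them on either side.

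Cybb encodes gp91phox, the catalytic subunit that carries the flavin and haem groups (chromosome X, 9435252 to 9487771). Its level was 927, 1465, 3010 and 1115 CPM under VpR83, VpR99, VpR126 and VpR2020 medium, and 1085 and 923 CPM in the 2 controls. VpR83 lay between the controls, VpR2020 just above them, and VpR126 far above. The mean was 1629 ± 947 CPM in conditioned libraries and 1004 ± 115 CPM in controls, and the difference was not called (log2 fold change 0.70 ± 0.50 SE, 95% interval of the fold 0.705 to 3.74, edgeR adjusted p = 0.292). Without VpR126 the log2 fold change was 0.23. By mean CPM, not divided by length, Cybb was among the highest transcripts of the marrow. Only 0.297% of tested genes in conditioned libraries and 0.469% in controls had as many CPM or more.

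Cyba encodes p22phox, which holds gp91phox stable and docks p47phox (chromosome 8, 122424776 to 122432930). It had 449, 474, 612 and 519 CPM under VpR83, VpR99, VpR126 and VpR2020 medium, and 489 and 492 CPM in the 2 controls. The controls lay within the conditioned range, and Cyba was not called (log2 fold change 0.07 ± 0.18 SE, 95% interval of the fold 0.779 to 1.41, edgeR adjusted p = 0.779). The sign turned with upper-quartile scaling and with unscaled library totals (-0.14 and -0.18), and without VpR126 (-0.017).

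Hvcn1, the proton channel gene, which B cells also express (chromosome 5, 122206804 to 122242297), was the least abundant member. It had 44.8, 41.7, 67.1 and 61.2 CPM under VpR83, VpR99, VpR126 and VpR2020 medium, and 58 and 53.7 CPM in the controls. The media of VpR83 and VpR99 lay below the controls and those of VpR126 and VpR2020 above them. Hvcn1 was not called (53.7 ± 12.4 CPM in conditioned libraries and 55.8 ± 3.06 CPM in controls, log2 fold change -0.06 ± 0.23 SE, 95% interval of the fold 0.659 to 1.4, edgeR adjusted p = 0.853). Its sign turned without VpR83 (0.023) or VpR99 (0.051).

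**Figure D2:**
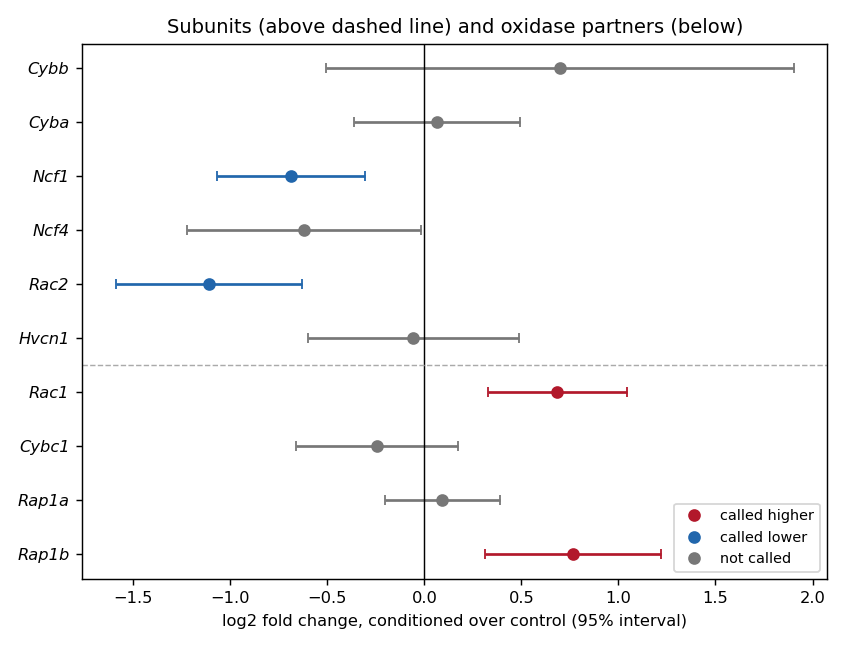
Log2 fold change of conditioned over control medium with its 95% interval for the 6 members (above the dashed line) and 4 oxidase partners (below it), coloured by call. Rac2 and Ncf1 lie below 0, Rac1 and Rap1b above it, and the interval of Cybb is the widest drawn.

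Line by line, VpR126 medium gave the highest level of all 6 members among the conditioned libraries, and VpR83 medium the lowest of 5. Of all tested genes, 31.7% were highest under VpR126 and 22.6% lowest under VpR83. Hvcn1 was the exception, lowest under VpR99. Over the control mean, Cybb differed by -0.11, 0.55, 1.58 and 0.15 log2 units under VpR83, VpR99, VpR126 and VpR2020 medium. For Rac2 these differences were -1.40, -1.01, -0.86 and -1.23, and for Ncf1 -0.87, -0.75, -0.54 and -0.60. Those of Ncf4 were -1.02, -0.35, -0.30 and -0.97. So the order of VpR99 and VpR2020 changed from gene to gene, with VpR99 above VpR2020 for Cybb, Ncf4 and Rac2 and below it for Cyba, Ncf1 and Hvcn1.

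The spread between the media differed between members. The highest conditioned library exceeded the lowest 3.25-fold for Cybb, a range exceeded by 22.6% of tested genes, against 1.18-fold between the controls. It did so 1.65-fold for Ncf4, 1.61-fold for Hvcn1, 1.45-fold for Rac2 and 1.36-fold for Cyba. Since each line had 1 library, none of these differences between media was tested. VpR126 also had the highest summed level of macrophage markers (16451 CPM), but VpR99, with the second highest Cybb level, had the lowest of the conditioned libraries (6184 CPM), beside 10056 CPM under VpR83 and 12688 CPM under VpR2020 medium. The sum does not give the order of each marker: Fcgr1 had 155, 354, 447 and 197 CPM and Marco 30.5, 52, 512 and 38.9 CPM under VpR83, VpR99, VpR126 and VpR2020 medium, the same order of lines as Cybb. These 2 were picked after their values were seen, and no other marker of the 12 had that order. Adgre1, Csf1r, Cd68, C1qa, C1qb, C1qc, Mertk and Trem2 were lowest under VpR99 among the conditioned libraries. The order of lines rests in part on scaling. With library totals only, VpR126 was highest for 5 members and VpR83 lowest for 4. Under upper-quartile scaling Cybb under VpR2020 medium lay 0.02 log2 units below the control mean (-0.02), and under VpR126 medium still 1.38 above it.

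**Figure D3:**
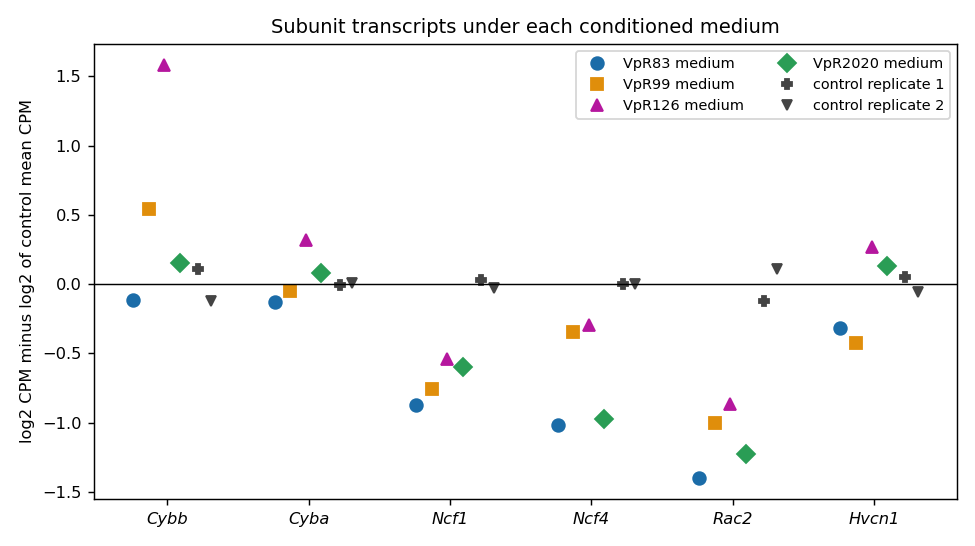
Log2 CPM of each member minus the log2 of its mean in the 2 controls, by library. VpR126 medium (triangles) is the highest conditioned library for all 6 members, with 1.58 for Cybb at the top and -0.86 for Rac2 at the bottom.

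Levels of different genes were compared per kilobase of merged exons (CPM per kb). In this scale Cyba was the most abundant member in both groups, with 494 ± 69.2 CPM per kb in conditioned libraries and 472 ± 2.32 CPM per kb in controls. Rac2 ranked second in controls (179 ± 29.2 CPM per kb in conditioned libraries and 387 ± 43.1 in controls). Cybb ranked second in conditioned libraries but below Rac2 and Ncf1 in controls (280 ± 163 CPM per kb in conditioned libraries and 173 ± 19.7 in controls). In conditioned libraries the ranges of Cybb (160 to 518 CPM per kb) and Rac2 (146 to 212) overlapped. Within every conditioned library, however, Cybb lay above Rac2. Under VpR83, VpR99, VpR126 and VpR2020 medium Cybb had 160, 252, 518 and 192 CPM per kb, and Rac2 146, 193, 212 and 165. In control replicates 1 and 2 Rac2 lay above Cybb (356 and 417 against 187 and 159 CPM per kb). This order was not tested. Ncf1 followed with 125 ± 13 CPM per kb in conditioned libraries and 202 ± 5.46 in controls, then Ncf4 with 89.2 ± 23.7 in conditioned libraries and 137 ± 0.172 in controls. Hvcn1 was last with 15.1 ± 3.47 CPM per kb in conditioned libraries and 15.7 ± 0.858 in controls.

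Within the membrane heterodimer, the ratio of Cybb to Cyba per kb was 0.369, 0.552, 0.879 and 0.384 under VpR83, VpR99, VpR126 and VpR2020 medium, and 0.397 and 0.335 in the controls. The groups overlapped (exact permutation test, two-sided p = 0.4). The 2 transcripts came closest to equal levels under VpR126 medium.

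Rac2 has a near relative, Rac1, which is expressed in most cell types and can serve the oxidase in macrophages. Rac1 had 428, 361, 387 and 421 CPM under VpR83, VpR99, VpR126 and VpR2020 medium, and 242 and 255 CPM in the 2 controls. It rose where Rac2 fell, with no overlap between the groups (399 ± 30.9 CPM in conditioned libraries and 248 ± 8.96 CPM in controls, log2 fold change 0.68 ± 0.15 SE, edgeR adjusted p = 0.0128). Of all tested genes, 32% had every conditioned library above both controls. Rac1 was not called without control replicate 1 or control replicate 2 or with library totals only (edgeR adjusted p = 0.122, 0.0879 and 0.0589, over all alternatives 0.000169 to 0.122). Per kb, Rac2 exceeded Rac1 1.54-, 2.40-, 2.47- and 1.76-fold under VpR83, VpR99, VpR126 and VpR2020 medium, and 6.62- and 7.37-fold in the controls. The ratio was 2.04 ± 0.461 in conditioned libraries and 6.99 ± 0.528 in controls. Its p was 0.133 by the exact permutation test, made two-sided by doubling the smaller tail. That is the smallest p this form of the test can give for 4 against 2 libraries, so it cannot reach 0.05 here. Of the 3 ratios between oxidase transcripts computed in this way, 1, that of Rac2 to Rac1, reached that value. It had to, because every conditioned library lay below both controls for Rac2 and above both for Rac1. This p therefore adds nothing to those values. The ratio of Hvcn1 to Cybb had p = 0.267 by the same exact test. Adjusted over the 3 by Benjamini-Hochberg none could pass. The absolute ratios depend on the length used: with the longest transcript, Rac2 to Rac1 was 1.93 ± 0.436 in conditioned libraries and 6.61 ± 0.499 in controls.

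**Figure D4:**
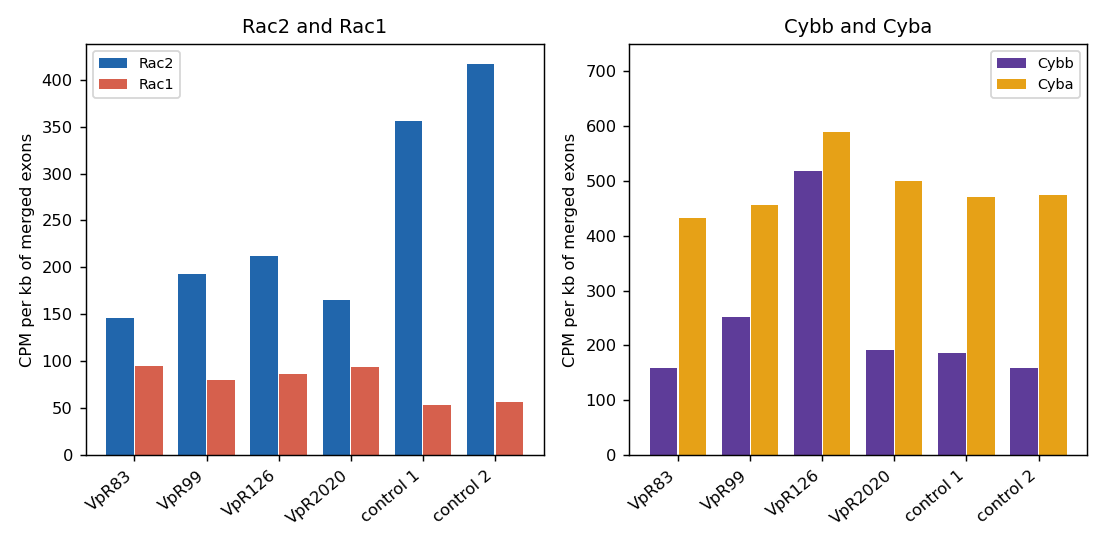
CPM per kb of merged exons in each library, on axes from 0, for the GTPase genes Rac2 and Rac1 (left) and for the membrane heterodimer genes Cybb and Cyba (right). Rac2 exceeds Rac1 in every library, but by 1.54- to 2.47-fold in conditioned libraries and 6.62- to 7.37-fold in controls; Cybb approaches Cyba only under VpR126 medium.

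Reads of the members could be told from those of other genes to different degrees. Of all 50-base windows in GENCODE M21 transcripts, none of Cybb and Ncf4, 0.189% of Ncf1, 0.484% of Rac2 and 2.39% of Cyba occurred on the same strand in a transcript of another gene. No Rac1 window occurred in another gene on the same strand, so none was shared with Rac2. Windows shared on the opposite strand were more frequent for Hvcn1, Ncf1, Rac1 and Rac2. Antisense overlap covered 39.7% of the Hvcn1 windows (with Tctn1), 7.26% of those of Ncf1 (with Gtf2ird2) and 50.3% of those of Rac1 (with Daglb). For Rac2, which no annotated gene overlaps, 1.16% were shared with genes elsewhere. Of the Cyba windows 2.11% were shared, mainly with Klhl12, which does not overlap Cyba. The kit marks strand, but the strand setting of the counting is not given in the sources used here, so values of Hvcn1 and Rac1, and to a lesser degree of Ncf1, are uncertain. Daglb itself was called higher (62.6 ± 12.1 CPM in conditioned libraries and 31.2 ± 2.18 CPM in controls, edgeR adjusted p = 0.0107). Tctn1 had 9.15 ± 0.826 CPM in conditioned libraries and 11.1 ± 0.198 CPM in controls and was not called. Gtf2ird2 had 19.8 ± 6.15 CPM in conditioned libraries and 29.2 ± 0.768 CPM in controls, lower in all 4 conditioned libraries than in both controls like Ncf1, but was not called (log2 fold change -0.56 ± 0.28, edgeR adjusted p = 0.149). Such a position below both controls was found for 33.3% of all tested genes. The part of this antisense overlap in the values was not tested.

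Among the other oxidase partners, 2 of 5 tested, Rac1 and Rap1b, were called higher and none lower (median log2 fold change 0.68). The shares of all tested genes were 22.5% called higher and 19.7% lower. Rap1b, a small GTPase gene, rose (log2 fold change 0.76 ± 0.19 SE, edgeR adjusted p = 0.0192), and its relative Rap1a, whose protein copurifies with the heterodimer, was not called (0.09 ± 0.12). Rap1b lost its call without either control and with library totals only (edgeR adjusted p = 0.0626, 0.158 and 0.0512, over all alternatives 0.00061 to 0.158). Cybc1, which encodes a chaperone that gp91phox needs, had 89 ± 10.1 CPM in conditioned libraries and 105 ± 20.7 CPM in controls and was not called (-0.24 ± 0.17). The organizer gene Noxo1 of epithelial oxidases had 0.628 ± 0.26 CPM in conditioned libraries and 0.251 ± 0.0224 CPM in controls. It was not called (edgeR adjusted p = 0.12), except without VpR99 (0.0464). Its partner Noxa1 had 0 counts in the conditioned libraries and 1 in the controls.

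Genes of the other NADPH oxidases were close to undetected. None of 7 (Nox1, Nox3, Nox4, Duox1, Duox2, Duoxa1 and Duoxa2) passed the filter on low counts. Their summed level was 0.073 to 0.465 CPM in conditioned libraries and 0.282 to 0.4 CPM in controls. Nox1 had 13 counts in the conditioned libraries together and 8 in the controls, and Nox4 had 2 in the conditioned libraries and 4 in the controls. Cybb was thus the only gene of a catalytic NOX or DUOX subunit among those listed that reached the tested set.

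Of 18 genes of the signalling around oxidase activation, which include the inhibitors of Rac Arhgdia and Arhgdib, 8 were called higher and 1 lower (median log2 fold change 0.47). Among all tested genes 22.5% were called higher and 19.7% lower. Vav3, an exchange factor gene for Rac, rose by 0.99 ± 0.17 log2 units, Pik3cg, the catalytic subunit gene of phosphoinositide 3-kinase gamma, by 1.01 ± 0.24, and Pla2g4a, the cytosolic phospholipase A2 gene, by 1.24 ± 0.39 (edgeR adjusted p = 0.00521, 0.0162 and 0.042). Arhgdib, which encodes the inhibitor that holds Rac in the cytosol of blood cells, had 596, 1039, 747 and 684 CPM under VpR83, VpR99, VpR126 and VpR2020 medium, and 1728 and 1893 CPM in controls. It fell by 1.24 log2 units (SE 0.25, edgeR adjusted p = 0.00923), the same direction as Rac2, while its relative Arhgdia was among the 8 called higher (0.85 ± 0.20, edgeR adjusted p = 0.0157).

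Of 10 genes of enzymes around NADPH supply, 2 were called higher and 4 lower (median log2 fold change -0.26). Among all tested genes the shares were 22.5% higher and 19.7% lower. The NADPH-producing dehydrogenases of the pentose phosphate pathway, G6pdx and Pgd, were not called (-0.23 ± 0.22 and 0.08 ± 0.16, edgeR adjusted p = 0.435 and 0.687), and the sign of Pgd turned with upper-quartile scaling and unscaled library totals. Of the same pathway, Rpia and Pgls fell by 1.74 and 1.26 log2 units, while the NADP-linked isocitrate dehydrogenase gene Idh1 and the malic enzyme gene Me1 rose by 1.92 ± 0.33 and 3.91 ± 0.59 (edgeR adjusted p = 0.00533, 0.00102, 0.00571 and 0.00371). Me1 remained low, at 2.70 ± 0.99 CPM in conditioned libraries and 0.177 ± 0.0151 CPM in controls. Rpia had 37, 60.4, 29.4 and 32.5 CPM under VpR83, VpR99, VpR126 and VpR2020 medium, and 131 and 136 CPM in controls, with no overlap. All conditioned libraries lay below both controls for 33.3% of tested genes.

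Of 16 tested genes that handle superoxide and peroxide, 3 were called higher and 7 lower (median log2 fold change -0.50). The shares over all tested genes were 22.5% and 19.7%. Prdx1, a peroxiredoxin gene, had 1026, 984, 1482 and 1249 CPM under VpR83, VpR99, VpR126 and VpR2020 medium, and 208 and 211 CPM in controls, and rose by 2.5 ± 0.25 log2 units (edgeR adjusted p = 0.00114). Cat, the catalase gene, rose by 1.81 ± 0.38 (edgeR adjusted p = 0.0117). The granule peroxidase genes of neutrophils and eosinophils, Mpo and Epx, fell by 2.44 and 3.15 log2 units (edgeR adjusted p = 0.0481 and 0.0252). Both are also members of the neutrophil precursor and eosinophil marker lists counted above, so these are the same calls. Mpo had 175, 831, 203 and 96.4 CPM under VpR83, VpR99, VpR126 and VpR2020 medium, and 1736 and 1798 CPM in controls. The mitochondrial superoxide dismutase gene Sod2 had 101, 114, 382 and 81.4 CPM under VpR83, VpR99, VpR126 and VpR2020 medium, and 48.4 and 49.2 CPM in controls. It was not called (1.80 ± 0.71, edgeR adjusted p = 0.0819), but was by DESeq2 and without VpR126 (adjusted p = 0.0133 and 0.00709, over all alternatives 0.00709 to 0.272). Without VpR126 its log2 fold change was 1.03. Nos2, the inducible nitric oxide synthase gene, was not called either (edgeR adjusted p = 0.0575), with 80, 1836, 28 and 4 counts under VpR83, VpR99, VpR126 and VpR2020 medium, and 3 and 0 in controls. Most of its counts thus came from VpR99, the deepest library. VpR99 was highest after depth scaling too (2.93, 14.9, 1.18 and 0.221 CPM under VpR83, VpR99, VpR126 and VpR2020 medium). Without VpR99, Nos2 had a log2 fold change of 4.58 in place of 6.36. It was called higher by DESeq2 and without VpR2020 (adjusted p = 0.000219 and 0.0346, over all alternatives 0.000219 to 0.231).

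Of 12 genes of transcription factors of blood cells known from work on the oxidase genes, 2 were called higher and 1 lower. Over all tested genes these shares were 22.5% and 19.7%. The log2 fold changes of the 12 lay on both sides of 0 (median 0.12). Gata1, which drives erythroid and eosinophil differentiation, had the lowest, at -4.79 ± 1.61. It had 0, 0.413, 10.6 and 0.498 CPM under VpR83, VpR99, VpR126 and VpR2020 medium, and 77.5 and 77.8 CPM in controls. The groups did not overlap, as for 65.3% of all tested genes, but Gata1 was not called (edgeR adjusted p = 0.0528). Leaving out VpR126 brought a call as lower (log2 fold change -7.90, edgeR adjusted p = 0.00158, over its alternatives 0.00158 to 0.197), as did upper-quartile scaling, unscaled library totals and limma-voom. Spi1, the gene of PU.1, had 319 ± 53.8 CPM in conditioned libraries and 290 ± 15.8 CPM in controls, and Irf8 had 247 ± 47.5 CPM in conditioned libraries and 255 ± 12.9 CPM in controls. Neither was called (log2 fold changes 0.14 ± 0.19 and -0.05 ± 0.21), and both signs depend on the setting. Cebpe, which drives late granulocyte maturation and is also on the neutrophil precursor list, fell by 2.81 log2 units (9.96, 36.9, 19.7 and 14.8 CPM under VpR83, VpR99, VpR126 and VpR2020 medium, and 134 and 153 CPM in controls, edgeR adjusted p = 0.00541). Cebpa and Runx1 rose by 1.03 ± 0.27 and 0.78 ± 0.16 (edgeR adjusted p = 0.0237 and 0.0107). Of the 18 called genes of the pathway lists named here, Rac1 and Rap1b included, 13 lost the call without control replicate 1 and 12 without control replicate 2, and 5 (Me1, Rpia, Pgls, Cebpe and Prdx1) kept it under all 13 alternatives. Pla2g4a was not called without control replicate 1, control replicate 2 or VpR83 (edgeR adjusted p = 0.199, 0.164 and 0.0782), nor with upper-quartile scaling, unscaled library totals or limma-voom. Mpo was not called without either control, VpR83, VpR126 or VpR2020 (edgeR adjusted p = 0.0713 to 0.162), nor with no low-count filter. Without VpR99 its log2 fold change was -3.48. Epx was not called without control replicate 1 (log2 fold change -1.61), without VpR2020 or with no low-count filter.

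**Figure D5:**
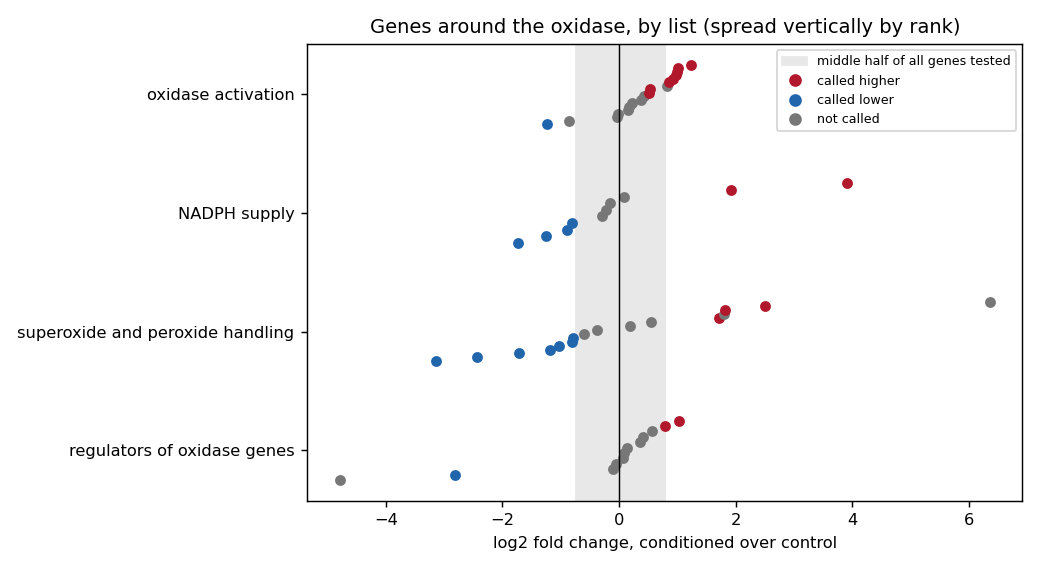
Log2 fold change of conditioned over control medium for the tested genes of 4 lists around the oxidase, coloured by call and spread vertically by rank within a list; the grey band spans the 25th to 75th percentile of all genes tested (-0.74 to 0.80). Genes of oxidase activation lie mostly right of 0, and those of superoxide and peroxide handling span the widest range of the 4 lists.

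The genes with the pattern most like each member were found by the root mean square difference of log2 CPM, centred on the controls, over the 6 libraries. Among the members themselves Cyba and Hvcn1 were the closest pair (0.18 log2 units), followed by Ncf1 and Ncf4 (0.25) and Ncf1 and Rac2 (0.38), and Cybb and Rac2 were the farthest apart (1.42). Outside the set, Cybb was closest to Dram1, Il15ra and Zup1 (0.11, 0.11 and 0.15), and 9 genes lay within 0.2 of it. Rac2 was closest to Gba2, Mplkip and Lrmp (0.07, 0.09 and 0.10), and 84 genes lay within 0.2. Ncf1 was closest to Ap4s1, Lrrc28 and Phf10, and Ncf4 to Zyx, Triobp and Pcgf5, with 332 and 49 genes within 0.2. The nearest to Cyba were Prdm9, Thap12 and Ppil2, and to Hvcn1 Pan3, the pseudogene Gm15361 and Irf8. Within 0.2 of Cyba and Hvcn1 lay 583 and 236 genes, and each of these counts includes the other member of this pair. These likenesses are descriptions over 6 libraries.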

How the data were processed

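RNA was sequenced from 6 bone marrow libraries made with a stranded TruSeq kit, per the labels' protocols. The submitters' processing notes name Trimmomatic 0.38, STAR 2.5.2b and build GRCm38. No counting tool, strand setting or annotation is given in the sources used here. The authors deposited raw, unnormalized read counts per Ensembl gene. Of 45706 identifiers, 45143 matched GENCODE M21, which gave symbols, positions and exon lengths. The analysis used edgeR 4.0.16 under R 4.3.3, with filterByExpr at its defaults (15141 genes kept), TMM scaling and the robust quasi-likelihood test of conditioned (n = 4) against control (n = 2) libraries, two-sided, called at an adjusted p below 0.05. SEs were derived from the log2 fold change and the F statistic (its size over the root of F), and 95% intervals use them with the test's degrees of freedom. The procedure was tested on simulated data. Alternatives were RLE, upper-quartile and library-total scaling, no low-count filter, DESeq2 1.42.0, limma-voom (limma 3.58.1), VpR99 thinned at random to 19.9% of its counts, and each library left out in turn.

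The members, gene lists and tests were chosen with earlier results of these data known. Named were all members, the oxidase partners reported here, up to 4 called genes with the largest change per other list reported here, a few fixed genes, and the 3 nearest genes by pattern. Tctn1, Gtf2ird2, Daglb and Klhl12 were added after their overlap or shared windows were seen. Arhgdia, G6pdx, Pgd and Gata1 were added after their values were seen. So were the macrophage and monocyte markers given by name, Fcgr1 and Marco included. A count of 0 allows up to 3 counts, or 0.0232 CPM in the deepest and 0.161 CPM in the shallowest library. An oxidase partner and a gene list are not reported here.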

Additional observations from a re-analysis of the deposited data

How the results depend on the processing

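No paired analysis was possible because the conditioned libraries carry line names and no replicate numbers. Upper-quartile scaling and unscaled library totals moved the median log2 fold change over all tested genes to -0.22 and -0.26 (main value -0.01), and 40% and 38.6% of calls were then higher (main value 53.3%). With these scalings Cyba (-0.14 and -0.18), Rap1a (-0.11 and -0.15), Pgd (-0.13 and -0.16) and Spi1 (-0.069 and -0.11) turned negative, and Ncf4 was called lower (-0.83 and -0.86). With 1 library left out, 1283 to 3657 genes were called higher and 918 to 3374 lower, and of the 6 members 0 to 3 lower and 0 higher. The fewest were called without control replicate 1 over all genes and without control replicate 2 among the members. With 1 library left out, log2 fold changes were 0.23 to 0.89 for Cybb, -0.017 to 0.13 for Cyba, -0.73 to -0.63 for Ncf1, -0.73 to -0.51 for Ncf4, -1.22 to -0.97 for Rac2, -0.17 to 0.051 for Hvcn1 and -0.12 to 0.071 for Irf8. Without either control the lone control is assumed to vary like the conditioned libraries, and the cause of the lost calls was not tested beyond the smaller number of libraries. RLE scaling, DESeq2, limma-voom, no low-count filter and thinning of VpR99 changed no call and no sign of a member. Of the 78 values of members under an alternative, 67 kept sign and call. With 2 controls, differences smaller than the intervals given for Cybb, Cyba and Hvcn1 were not detectable.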
